A study of Mus musculus with 6 samples.

Results

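Fanconi and double-strand break repair genes were followed in mouse haematopoietic stem cells (HSCs), the bone marrow cells that renew themselves and give rise to all blood lineages. The 36 genes were listed by function and found as the rows of the expression table whose symbol equals the listed one, 36 of 46959 rows. All 36 reached 1 CPM, a read count scaled to the total reads of its library, in at least 3 of the 6 libraries, which was the condition for a test and was met by 12955 rows. In 35 of them every library was at or above that level. The exception was Lig4, which reached it in 4 libraries.

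The study compared HSCs of MaeaCsf1r-Cre mice with those of their littermate controls, 3 libraries each, from bone marrow of mice given as 8 weeks old in the series description and as adult in the sample labels. MAEA is an E3 ubiquitin ligase. MaeaCsf1r-Cre mice carry floxed Maea alleles and a Csf1r-iCre transgene on a C57BL/6 background, and this Cre is classically active in mononuclear phagocytes as well as, in this study, in HSCs. The labels call the other group control and do not say which floxed or Cre alleles it carried. HSCs were sorted as CD150+ CD48- Lineage- Sca-1+ c-kit+ cells, and each library came from about 2000 cells pooled from a pair of mice, so that 1 library is 1 pool. No treatment is given for either group. In such bulk RNA, fewer cells of a type and less RNA per cell cannot be told apart.

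Cells repair broken and crosslinked DNA by several connected routes. The Fanconi core complex adds ubiquitin to FANCD2 and FANCI where replication forks meet a crosslink, and BRCA1, PALB2 and BRCA2 then promote homologous recombination, in which the break is copied from the sister chromatid. The Ku proteins, the DNA-dependent kinase and ligase IV rejoin ends without a template, while ATM and ATR signal the damage to the cell cycle. Inherited loss of Fanconi genes leads to bone marrow failure, and recombination genes are in general more active in dividing cells than in resting ones.

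Maea itself lies on chromosome 5 of GRCm38 (chr5:33335509-33373296). It was at 108, 116 and 123 CPM in control replicates 1, 2 and 3 and at 76.9, 88.6 and 101 CPM in MaeaCsf1r-Cre replicates 1, 2 and 3. The groups did not overlap. Reads were counted over all exons together, so the floxed part is not seen apart. The difference on the log2 scale was -0.39 (standard error 0.13), with a limma adjusted p of 0.967, or of 0.218 when the replicate number entered as a block. The reads behind the scaling numbered 32966000 to 39612000 in control and 44156000 to 60933000 in MaeaCsf1r-Cre libraries, so 3 reads corresponded to 0.0492 to 0.091 CPM, a limit for counting error alone. The least covered value among the repair genes, in Lig4, stood for about 29 reads.

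None of the 36 repair genes passed the test between MaeaCsf1r-Cre and control HSCs. The smallest adjusted p was 0.967 (limma on log2(CPM + 1), two-sided, Benjamini-Hochberg over 12955 genes), or 0.283 when replicate was blocked. Over all genes tested 1 gene passed in either fit, or 0.00772%, and it is not a repair gene. By group mean 27 of the 36 genes were higher in MaeaCsf1r-Cre HSCs and 9 were lower. The log2 fold changes ran from -0.16 for Rad52 to 0.43 for Lig4 with a median of 0.08, whereas the median over all genes tested was -0.06 and 39.1% of those were higher. The scaling between libraries bears on both. After rescaling by median ratios the median was 0.15 and 29 of 36 were higher, beside a median of 0.00 and 50% of all genes, and after quantile normalization it was 0.17 and 30 of 36, beside 0.02 and 53.1%. Leaving out MaeaCsf1r-Cre replicate 1 left 18 of 36 genes higher, with a median of 0.01, beside 37.7% of all genes. Leaving out control replicate 2 left 22 higher with a median of 0.04, beside 38.5% of all genes. Leaving out MaeaCsf1r-Cre replicate 2 left 33 higher with a median of 0.19, beside 47% of all genes. Of the 6 libraries, MaeaCsf1r-Cre replicate 1 was the one whose removal lowered the count most.

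The spread between pools was wide beside these differences. For 31 of the 36 genes the means of the groups differed by less than the larger SD, which held for 79.5% of all genes tested. The exceptions were Fancg, Fancl, Xrcc2, Xrcc3 and Lig4. The 95% interval of the fold change reached 0.32 to 0.80 on the log2 scale to either side, with a median of 0.43. For 35 genes the interval lay within 1 log2 unit of 0, so that a difference of 1 log2 unit on this scale was outside it. Lig4 was the exception, with an upper bound of 1.09.

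**Figure D1:**
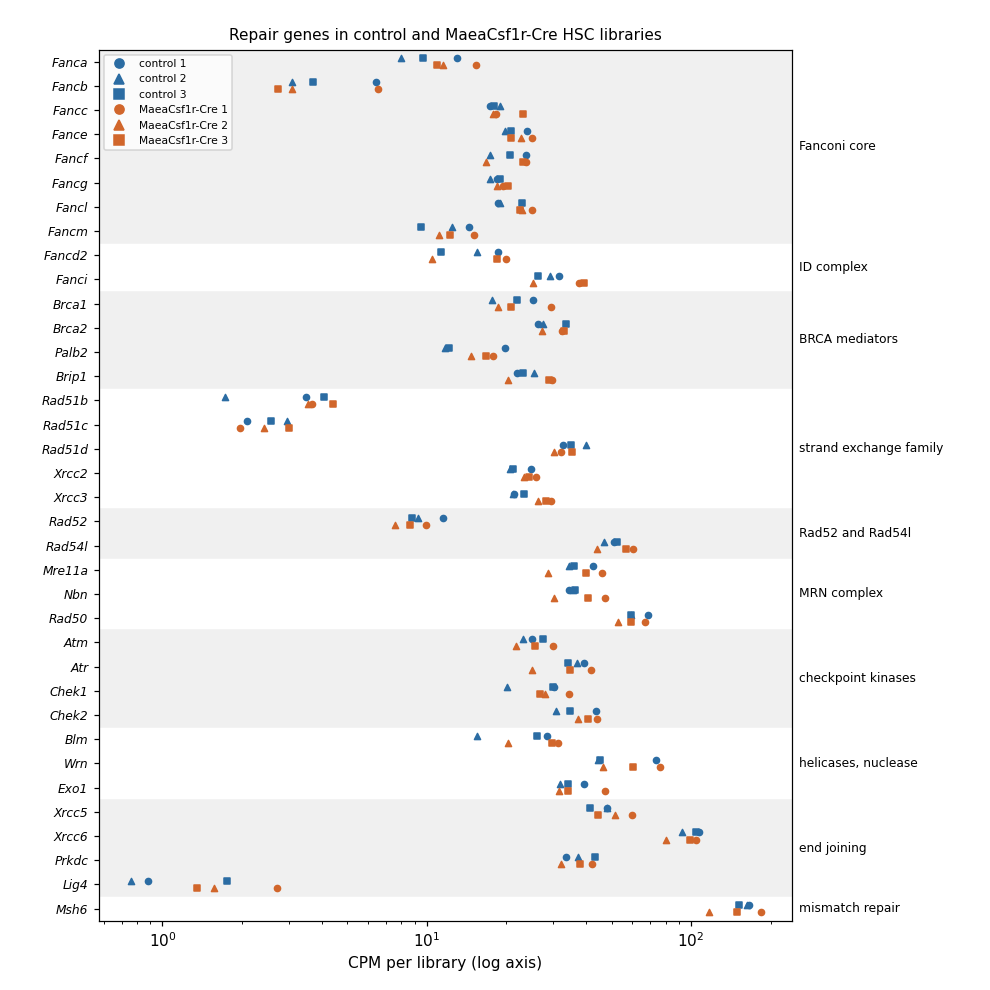
CPM of each of the 36 repair genes in each library on a log axis, grouped by role, with control libraries in blue, MaeaCsf1r-Cre libraries in orange and the replicate number given by the marker. The groups overlap for every gene except Xrcc3, and the circle of MaeaCsf1r-Cre replicate 1 is often the rightmost point of its row.

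The gene with the clearest separation was Xrcc3, which encodes a protein that assists strand exchange in homologous recombination and lies on chromosome 12 (chr12:111803192-111813873, minus strand, 8 exons in its longest transcript). It was at 21.3, 21.1 and 23.3 CPM in control replicates 1, 2 and 3, and at 29.4, 26.4 and 28.3 CPM in MaeaCsf1r-Cre replicates 1, 2 and 3. Every MaeaCsf1r-Cre library was above every control library. The means were 21.9 ± 1.23 and 28.0 ± 1.49 CPM (SD, n = 3 each), which differed by 0.34 in log2 (standard error 0.14). Its unadjusted p from limma's model was 0.0371, and 0.0236 with the block, but the adjusted p was 0.967 and 0.283. It was the single repair gene with an unadjusted p under 0.05 in either fit. Of all genes tested, 0.803% were higher with such a p without the block and 3.11% with it, and 3.19% and 10.8% were lower, where no repair gene was. It was also the single repair gene whose groups did not overlap, among 2.49% of all genes for higher and 6.06% for lower values. When libraries were left out in turn the unadjusted p of Xrcc3 stayed under 0.05 only without MaeaCsf1r-Cre replicate 2.

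Xrcc2, Rad51b, Rad51c and Rad51d, whose products belong to the same family as XRCC3 and work in small complexes in homologous recombination, had no common direction. Rad51b was at 3.49, 1.72 and 4.09 CPM in control and 3.69, 3.56 and 4.42 CPM in MaeaCsf1r-Cre replicates 1, 2 and 3. The low value of control replicate 2 set its log2 fold change of 0.30 (standard error 0.28), which was 0.03 without that library. Xrcc2 was at 24.7, 20.6 and 21.2 CPM in control and at 25.8, 23.4 and 24.4 CPM in MaeaCsf1r-Cre libraries. It was higher in each same-numbered pair, yet control replicate 1 lay above a pair of the MaeaCsf1r-Cre libraries (log2 fold change 0.14, standard error 0.15). Rad51d was at 32.7, 40.1 and 35.1 CPM in control and 32.3, 30.2 and 35.4 CPM in MaeaCsf1r-Cre libraries, a difference of -0.13 in log2 (standard error 0.14). Control replicate 2 was its highest library. Rad51c, also part of these complexes, was low in both groups, at 2.54 ± 0.431 and 2.46 ± 0.516 CPM (SD, n = 3 each).

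In the Fanconi core complex, 7 of 8 genes had a higher mean in MaeaCsf1r-Cre HSCs, with a median log2 fold change of 0.08. Fancl, the ubiquitin ligase subunit, was at 18.6, 18.9 and 23.0 CPM in control and at 25.1, 23.0 and 22.6 CPM in MaeaCsf1r-Cre replicates 1, 2 and 3. Control replicate 3 lay within the range of the MaeaCsf1r-Cre libraries (log2 fold change 0.22, standard error 0.15, adjusted p = 0.967). Fancl shares 17.0% of its exonic bases with Vrk2 on the opposite strand, and without strand information reads there cannot be assigned. Fanca, a scaffold of the complex, was at 13.0, 7.97 and 9.68 CPM in control and 15.3, 11.5 and 10.9 CPM in MaeaCsf1r-Cre libraries. It was higher in each same-numbered pair, while control replicate 1 lay within the MaeaCsf1r-Cre range (log2 fold change 0.28, standard error 0.23). Fanca shares 8.6% of its exonic bases with Zfp276.

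The other core genes differed little. Fancc was at 18.0 ± 0.738 and 19.7 ± 3.0 CPM, and Fance, the link to FANCD2, at 21.5 ± 2.18 and 22.9 ± 2.08 CPM (SD, n = 3 each). Fancf, an adaptor of the complex, was at 20.6 ± 3.15 and 21.2 ± 3.82 CPM, and Fancg, another adaptor, at 18.3 ± 0.791 and 19.4 ± 0.922 CPM. These 4 genes stood close to each other in CPM in both groups, but CPM is not corrected for gene length. Per kilobase of the longest transcript, Fancc, Fance, Fancf and Fancg were at 5.7, 10.6, 12.2 and 6.6 CPM in control HSCs. Fancm, the translocase that anchors the complex at the fork, was at 12.2 ± 2.52 and 12.8 ± 2.07 CPM. Fancb, the X-linked partner of FANCL, was at 4.40 ± 1.76 and 4.13 ± 2.11 CPM and was the single core gene with a lower mean. Its replicate 1 libraries, at 6.40 and 6.56 CPM, were about equal and stood above the other 4, which lay between 2.73 and 3.71 CPM.

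The ID complex is the pair of proteins that the core complex ubiquitinates. Fanci was at 31.5, 29.3 and 26.4 CPM in control and 37.8, 25.2 and 39.3 CPM in MaeaCsf1r-Cre replicates 1, 2 and 3. MaeaCsf1r-Cre replicate 2 was the lowest of all libraries, and the other MaeaCsf1r-Cre libraries were the highest (log2 fold change 0.20, standard error 0.19). Without MaeaCsf1r-Cre replicate 2 its unadjusted p fell under 0.05, although it stayed above it after adjustment over all genes. Fanci shares 13.4% of its exonic bases with Polg on the opposite strand. Fancd2 was also lowest in MaeaCsf1r-Cre replicate 2, at 10.5 CPM beside 20.0 and 18.4 CPM in replicates 1 and 3, and had means of 15.1 ± 3.66 in control and 16.3 ± 5.09 CPM (SD, n = 3 each).

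The recombination mediators had a median log2 fold change of 0.11, with 4 of 4 means higher. Brca1, which acts in resection and in recruiting PALB2, was at 21.6 ± 3.79 CPM in control HSCs and 23.0 ± 5.80 CPM in MaeaCsf1r-Cre HSCs (SD, n = 3 each). Brca2, a mediator of homologous recombination, was at 29.2 ± 3.96 and 30.9 ± 3.17 CPM, and the helicase gene Brip1 at 23.5 ± 1.78 and 26.4 ± 5.36 CPM. Palb2, which joins BRCA1 to BRCA2, was at 14.5 ± 4.54 and 16.4 ± 1.55 CPM. Each of these differences was smaller than the spread between pools. Rad52, a strand annealing factor, was at 9.85 ± 1.47 and 8.73 ± 1.16 CPM and was lower in each same-numbered pair. Rad54l, a translocase that acts in strand invasion, was at 50.2 ± 2.83 and 53.7 ± 8.60 CPM.

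The break sensors and the checkpoint kinases differed little as well. Mre11a, Nbn and Rad50 encode the complex that first binds a broken end, and they had log2 fold changes of 0.01, 0.13 and -0.07. Nbn was at 35.5 ± 1.04 CPM in control HSCs and 39.4 ± 8.5 CPM in MaeaCsf1r-Cre HSCs (SD, n = 3 each), so that the MaeaCsf1r-Cre pools spread more. Chek2, a kinase downstream of ATM, was at 43.6, 30.8 and 34.7 CPM in control and 43.9, 37.3 and 40.7 CPM in MaeaCsf1r-Cre replicates 1, 2 and 3. It was higher in each same-numbered pair, but the replicate 1 libraries were about equal (log2 fold change 0.17, standard error 0.16). Chek1, a kinase downstream of ATR, was at 26.8 ± 5.80 and 29.7 ± 4.16 CPM. Atm was at 25.2 ± 2.21 and 25.8 ± 4.16 CPM. Atr, at 36.8 ± 2.49 and 33.8 ± 8.30 CPM, was the single kinase with a lower mean, and its lowest library was MaeaCsf1r-Cre replicate 2 at 25.1 CPM.

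The helicases and the nuclease that process recombination intermediates had a median log2 fold change of 0.17, with 3 of 3 means higher. Blm was at 23.4 ± 6.96 and 27.1 ± 5.97 CPM, and Wrn at 54.4 ± 16.6 and 61.0 ± 15.1 CPM (SD, n = 3 each), and both were higher in each same-numbered pair. For both the replicate number separated the libraries more than the group did. Wrn was at 73.5 and 76.4 CPM in the replicate 1 libraries and at 44.6 and 46.3 CPM in the replicate 2 libraries. Exo1, which resects ends, was at 35.2 ± 3.87 and 37.7 ± 8.35 CPM.

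Among the end joining genes, Xrcc5 and Xrcc6 encode the larger and the smaller Ku subunit and had opposite signs. Xrcc5 was at 47.9, 48.0 and 41.5 CPM in control and 59.8, 51.5 and 44.5 CPM in MaeaCsf1r-Cre replicates 1, 2 and 3, higher in each same-numbered pair (log2 fold change 0.17, standard error 0.15). MaeaCsf1r-Cre replicate 3 lay within the control range. Xrcc6 was at 101 ± 7.96 and 94.5 ± 12.6 CPM (SD, n = 3 each) and was lower in each pair, with a log2 fold change of -0.10 (standard error 0.14). The difference between these genes was not tested. Prkdc, the DNA-dependent kinase, was at 38.0 ± 5.01 and 37.4 ± 5.06 CPM. Lig4, the ligase that seals the joined ends, was at 0.88, 0.757 and 1.75 CPM in control and 2.71, 1.56 and 1.35 CPM in MaeaCsf1r-Cre libraries. Its groups overlapped through control replicate 3, and its log2 fold change of 0.43 (standard error 0.29, unadjusted p = 0.169 from limma's model) rests on the lowest read numbers of the list. Msh6, a mismatch recognition subunit, was at 160.1 ± 7.09 and 150 ± 33.0 CPM, lowest in MaeaCsf1r-Cre replicate 2.

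**Figure D2:**
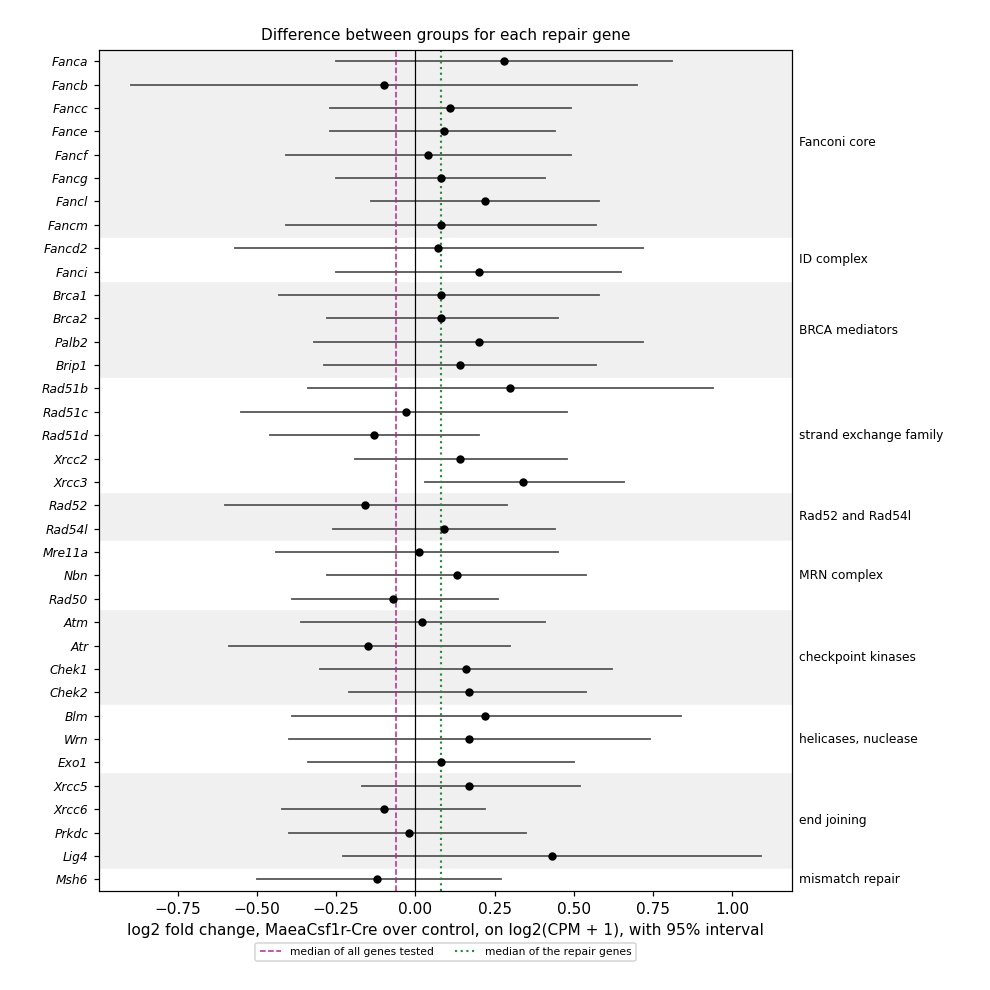
Log2 fold change of MaeaCsf1r-Cre over control on the log2(CPM + 1) scale for each of the 36 repair genes, with the 95% interval from limma as a line, the median of all genes tested dashed and the median of the repair genes dotted. The interval of Xrcc3 (0.03 to 0.66) is the single one that does not cross 0, before adjustment for the number of genes.

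Same-numbered libraries deviated together over all genes, and the repair genes can also be read pair by pair. In all 3 pairs MaeaCsf1r-Cre was higher for 10 of 36 genes, beside 13.2% of all genes tested. These were Fanca, Fance, Fancg, Rad51b, Xrcc2, Xrcc3, Chek2, Blm, Wrn and Xrcc5. It was lower in all 3 pairs for Rad52 and Xrcc6, 2 of 36, beside 23.5% of all genes. The pairs did not go the same way. The median log2 difference of the 36 genes was 0.11 in pair 1, -0.03 in pair 2 and 0.10 in pair 3, with 30, 16 and 24 genes higher.

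The libraries of one group differed from each other across the list. MaeaCsf1r-Cre replicate 1 was the highest of the 6 libraries for 24 of the 36 genes, or 66.7%, while it was the highest for 25.4% of all genes tested. MaeaCsf1r-Cre replicate 2 was the lowest library for 16 genes, or 44.4%, beside 27.5% of all genes, and control replicate 2 for 13, or 36.1%, beside 16.6%. Within the MaeaCsf1r-Cre group replicate 1 was highest for 29 genes and replicate 2 lowest for 28. Within the control group the same replicates were highest for 21 and lowest for 20. The median deviation of the 36 genes from their own mean over 6 libraries was 0.11, -0.13 and -0.03 on the log2 scale in control replicates 1, 2 and 3, and 0.24, -0.19 and 0.06 in MaeaCsf1r-Cre replicates 1, 2 and 3. Within the MaeaCsf1r-Cre group replicates 1 and 2 thus lay farther apart than the groups did. The share of a library that the rows of the table summed to was 78.8, 76.9 and 78.2% in control replicates 1, 2 and 3. In MaeaCsf1r-Cre replicates 1, 2 and 3 it was 80.2, 75.2 and 79.4%. This share was thus also highest in MaeaCsf1r-Cre replicate 1 and lowest in MaeaCsf1r-Cre replicate 2. Its part in the order of the libraries was not tested.

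Genes of the cell cycle were set beside this order. Of 22 genes of S phase (such as Mcm2 and Pcna) the median deviation was 0.02, -0.27 and 0.01 in control and 0.26, -0.10 and 0.04 in MaeaCsf1r-Cre replicates 1, 2 and 3, and of 16 genes of mitosis (such as Mki67 and Plk1) it was 0.10, -0.24 and -0.14 in control and 0.32, -0.26 and 0.20 in MaeaCsf1r-Cre libraries. Both lists were thus highest in MaeaCsf1r-Cre replicate 1, as the repair genes were. By group mean 21 of 22 S phase genes and 16 of 16 mitosis genes were higher in MaeaCsf1r-Cre HSCs, with median log2 fold changes of 0.11 and 0.17, and none passed the test in either fit. Without MaeaCsf1r-Cre replicate 1 these counts were 14 and 12, with medians of 0.01 and 0.05, and without control replicate 2 they were 12 and 14, with medians of 0.01 and 0.08. Of all genes 39.1% were higher with all libraries, 37.7% without MaeaCsf1r-Cre replicate 1 and 38.5% without control replicate 2. The part of cell cycle state in the values of the repair genes was not tested.

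**Figure D3:**
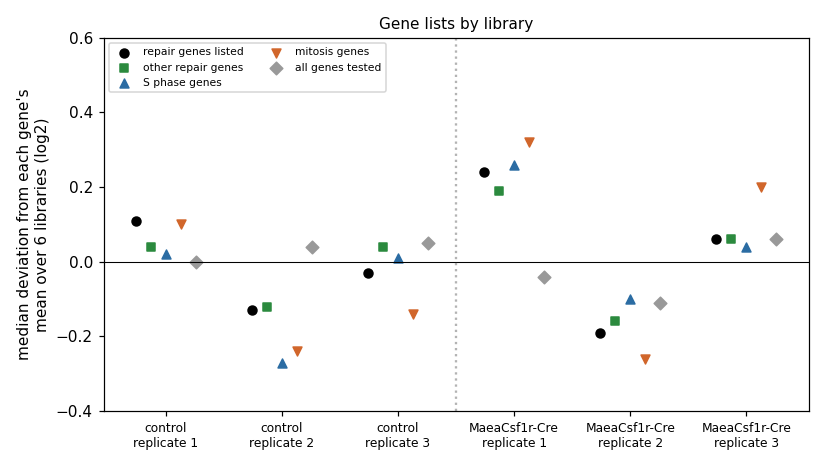
Median over each gene list of the deviation of a gene from its mean over 6 libraries (log2), for each library, with the repair genes as black circles, 74 other repair genes as green squares, S phase genes as blue triangles, mitosis genes as orange triangles and all genes tested as grey diamonds. The repair genes range from -0.19 in MaeaCsf1r-Cre replicate 2 to 0.24 in MaeaCsf1r-Cre replicate 1, while all genes tested stay between -0.11 and 0.06.

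Markers of cell types also differed between libraries, and some of them by group mean. The summed level of 6 erythroid genes was 3771, 1359 and 781 CPM in control replicates 1, 2 and 3. In MaeaCsf1r-Cre replicates 1, 2 and 3 it was 4014, 1574 and 1776 CPM. The sum was highest in the replicate 1 libraries, but the erythroid genes did not move as one. In pairs 1, 2 and 3, MaeaCsf1r-Cre was higher for 2, 5 and 5 of the 5 tested. MaeaCsf1r-Cre replicate 1 was the highest library for 24 of the 36 repair genes, beside 25.4% of all genes. Control replicate 1 was the highest for 4, beside 10.9%. Of 8 macrophage genes the sum was 14.8 to 37.0 CPM in control and 2.79 to 18.0 CPM in MaeaCsf1r-Cre libraries, and 5 of 5 tested were lower by mean. Of these 5, 3 were lower without overlap of the groups, beside 6.06% of all genes tested. Without the block 3 were lower with an unadjusted p under 0.05 in limma's model, beside 3.19% of all genes. None passed after adjustment in either fit. A set of 8 genes was taken as HSC markers (such as Procr and Hlf). Their sum was 1107 to 1765 CPM in control and 774 to 1434 CPM in MaeaCsf1r-Cre libraries, and 6 of 8 were lower by mean. The median log2 fold change of the 8 was -0.47. None had an unadjusted p under 0.05 in limma's model without the block. With the block 6 were lower and 1 was higher with such a p, beside 10.8% and 3.11% of all genes. None of the 8 passed after adjustment. Of 8 B cell genes the sum was 33.8 to 55.4 and 13.9 to 27.0 CPM, without overlap, with Pax5 and Igll1 at 0 in every library. Of the 2 B cell genes tested, 2 were lower by mean and 1 was lower without overlap. An unadjusted p under 0.05 in limma's model without the block was found for 1, and none passed after adjustment. Of 8 granulocyte genes the sum was 27.9 to 228 and 4.58 to 122 CPM. The 6 T cell genes summed to at most 0.151 CPM in any library, with Cd3g, Cd2 and Cd8a at 0. The part of such cells in the values of the repair genes was not tested.

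Since the repair genes and the S phase genes were both highest in MaeaCsf1r-Cre replicate 1, the promoters of the repair genes were searched for the letters of the E2F site, the element through which E2F factors act on many S phase genes. RefSeq promoter sequences of GRCm38.p6 were matched by symbol for 28 of the 36 genes, with 32 windows of 250 bases before a transcript start in RefSeq. The motifs TTTGGCGC, TTTCGCGC, TTTCCCGC and TTTGCCGC were searched on both strands. A match was found for 4 genes, in 4 of 32 windows or 12.5%, while 1.86% of all 32851 windows and 3.26% of the 11662 windows of genes tested held one. The difference between these shares was not tested. The 4 excerpts are shown to let the sites be compared, each 30 bases of the gene's own strand from 5′ to 3′ with the match in capitals.
Fancg, chr4:43010335-43010364, minus strand: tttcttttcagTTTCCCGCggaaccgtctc
Chek2, chr5:110839820-110839849, plus strand: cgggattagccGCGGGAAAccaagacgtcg
Brca2, chr5:150522442-150522471, plus strand: tttaggccacaGCGGGAAAcagacacacac
Xrcc6, chr15:82016312-82016341, plus strand: agggggtggaaGCGGGAAAtgcgagtgggc
The match in Fancg reads TTTCCCGC in the direction of the gene, and in Chek2, Brca2 and Xrcc6 the same motif lies on the other strand and reads GCGGGAAA. It starts 52, 152, 168 and 46 bases before the start of the RefSeq window's transcript in Fancg, Chek2, Brca2 and Xrcc6. By the GENCODE annotation the Fancg and Xrcc6 excerpts lie inside the gene (chr4:43002343-43010506 and chr15:81987835-82040085), since it places an earlier start there, and the Chek2 and Brca2 excerpts lie before it. These genes were at log2 fold changes of 0.08, 0.17, 0.08 and -0.10, and none passed the test. Of the 4, only Chek2 was highest in MaeaCsf1r-Cre replicate 1, at 43.9 CPM. Fancg was highest in MaeaCsf1r-Cre replicate 3 at 20.3 CPM, Brca2 in control replicate 3 at 33.7 CPM and Xrcc6 in control replicate 1 at 107 CPM. A match describes the letters only and does not show that a factor binds there.

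Levels were compared between genes per kilobase of the longest annotated transcript, which ran from 1691 to 12647 bases. In control HSCs Msh6 had the highest level, at 37.7 ± 1.67 CPM per kilobase (SD, n = 3), followed by Xrcc6 at 30.6 ± 2.42 and Xrcc5 at 17.9 ± 1.46. Rad54l followed at 16.6 ± 0.936 and Chek2 at 16.0 ± 2.89 CPM per kilobase, and the ranges of 1 SD around these values and that of Xrcc5 overlapped. At the low end were Rad51c at 0.644 ± 0.109 and Lig4 at 0.225 ± 0.108 CPM per kilobase. Thus the ligase of end joining was the lowest of the list while both Ku subunits were among its highest. The median gene of the list stood at percentile 43.4 of all genes tested.

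Fold changes fell with transcript length across the whole table. Over 12827 genes with a known length, log2 fold change and length had a Spearman's rho of -0.313, across genes, which are not independent replicates. The repair genes had a median length of 3870 bases, longer than the 2926 bases over all genes tested. Of the 36 genes, 32 lay above the median fold change of all genes of like length. After a loess correction for length the median of the repair genes was 0.21, beside 0.01 for all genes. Of the repair genes 31 of 36 were then above 0, beside 51.2% of all genes. The length-corrected fit with the replicate block gave 4 genes with an unadjusted p under 0.05, namely Blm, Fanca, Wrn and Xrcc3, and 0 with an adjusted p under 0.05. In that fit 11.5% of all genes had an unadjusted p under 0.05, close to the share of the repair genes.

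**Figure D4:**
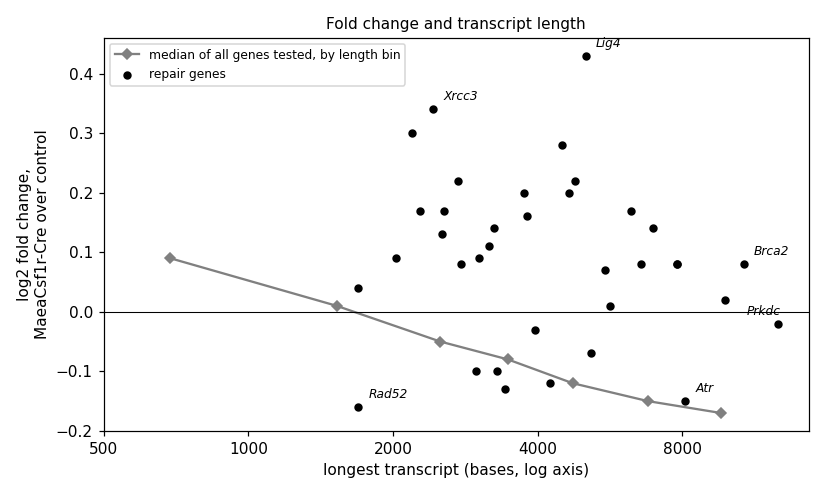
Log2 fold change of MaeaCsf1r-Cre over control against the length of the longest transcript (log axis), with each repair gene as a black point and the median of all genes tested in each of 7 length bins as grey diamonds. The grey line falls from 0.09 in the shortest to -0.17 in the longest bin, and most black points lie above it.

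A further 74 genes of the same pathways, chosen by function, gave the wider context. None passed the test (smallest limma adjusted p = 0.967, or 0.265 with replicate blocked). By group mean 43 were higher and 31 lower, with a median log2 fold change of 0.02, where 39.1% of all genes were higher. The split was not stable. Without MaeaCsf1r-Cre replicate 1, 30 of 74 or 40.5% were higher with a median of -0.05, beside 37.7% of all genes. Without control replicate 2 it was also 30 of 74, with a median of -0.02, beside 38.5% of all genes. After rescaling by median ratios 51 or 68.9% were higher, beside 50% of all genes. After quantile normalization 54 or 73% were higher, beside 53.1%. The groups did not overlap for 6 higher genes and 1 lower gene of the 74, beside 2.49% and 6.06% of all genes. Clspn, which helps ATR to activate CHEK1, was at 10.2, 9.16 and 11.0 CPM in control and 13.4, 15.1 and 13.6 CPM in MaeaCsf1r-Cre replicates 1, 2 and 3. Its log2 fold change was 0.43 (standard error 0.17). Every MaeaCsf1r-Cre library was above every control library, and MaeaCsf1r-Cre replicate 2, often the lowest for the repair genes, was the highest here. H2afx, the histone variant that ATM phosphorylates around breaks, was at 88.3, 87.3 and 79.3 CPM in control and 104, 94.0 and 115 CPM in MaeaCsf1r-Cre libraries (log2 fold change 0.29, standard error 0.12). Both had an unadjusted p under 0.05 in limma's model, 0.0316 for Clspn and 0.0477 for H2afx, and an adjusted p of 0.967.

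The other genes of this wider list whose groups did not overlap were as follows. Stra13 and Apitd1, which encode the histone-fold partners of FANCM, were at 41.6 ± 1.09 and 50.3 ± 3.49 CPM and at 12.0 ± 1.49 and 14.7 ± 0.711 CPM in control and MaeaCsf1r-Cre HSCs (SD, n = 3 each). Rad9a, a subunit of the checkpoint clamp, was at 30.7 ± 1.62 and 35.7 ± 2.97 CPM. Mad2l2, a subunit of polymerase zeta and shieldin, was at 28.1 ± 1.65 and 30.5 ± 0.21 CPM. The single gene with lower values was the mismatch repair gene Mlh3, at 19.0 ± 0.863 and 15.9 ± 0.836 CPM.

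With the replicate block, 6 of the 74 genes had an unadjusted p under 0.05, 4 higher and 2 lower, and 2 without it, both higher. Of all genes tested 3.11% were higher and 10.8% lower with such a p in the blocked fit, and 0.803% and 3.19% in the other. The higher ones were H2afx, Clspn, Stra13 and Timeless, a fork protection gene at 70.1 ± 11.1 and 88.7 ± 20.7 CPM (SD, n = 3 each). The lower ones were the chromatin mediators of the break signal, Mdc1 at 40.2 ± 6.56 and 28.7 ± 9.01 CPM and Trp53bp1 at 50.4 ± 12.0 and 39.0 ± 5.85 CPM (SD, n = 3 each). Their groups overlapped. By role, 17 of 25 other recombination genes had a higher mean, with a median log2 fold change of 0.12. Of 8 other end joining genes, 2 had a higher mean, with a median of -0.10. The difference between these roles was not tested. Xrcc4, which binds ligase IV, was at 8.36 ± 2.03 and 6.11 ± 1.64 CPM.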

How the data were processed

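RNA from 6 HSC pools, 3 control and 3 MaeaCsf1r-Cre, was sequenced. Per the labels and the methods, the authors used the SMART-Seq v4 and Nextera XT kits, which do not keep strand, trimmed single-end reads with Trim Galore, and aligned them to mm10 with STAR 2.5.3a. Quantification and normalisation used Partek Flow, giving the deposited CPM values, each with 0.0001 added, which was subtracted. The rows of the table summed to 75.2 to 80.2% of a library. Of the symbols 27 had become dates and 4 rows shared a symbol. Within 0.02 of a read, 73.4 to 75.3% of low values were whole reads, and no read counts were recovered. Gene positions, lengths and overlaps came from GENCODE M21 (GRCm38), later than the authors' annotation, where 44876 rows found a gene, as did 36 of 36 repair genes and 73 of 74 other repair genes (not Stra13).

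Genes that reached a CPM of 1 in 3 or more libraries entered a fit of log2(CPM + 1) by limma 3.58.1 in R 4.3.3 (linear model, moderated test with a mean-variance trend), comparing MaeaCsf1r-Cre with control. Tests were two-sided, and p-values were adjusted over all genes by Benjamini-Hochberg, with a threshold of 0.05. Fold changes are on that scale and understate those of low genes. The labels' replicate numbers were checked for pairing. Deviations from the group means correlated positively across genes between same-numbered libraries (Pearson's r of 0.627, 0.523 and 0.397). Between others r was -0.459 to -0.0538. That is not separate evidence of pairing, since the deviations within a group cancel for each gene. The main fit and the length-corrected fit were repeated with the number as a block. Whether a number marks a shared day or litter is not stated. Intervals and the 3-read limit cover counting or pool-to-pool error only.

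Alternatives were a filter at a CPM of 10 or none, a pseudocount of 0.1, median ratios, quantile normalization, the replicate block, no mean-variance trend, each library left out, and a loess correction for length with a span of 0.5, alone and with the block. The repair genes and the other lists were chosen with earlier results of these data known. Library values were printed for genes whose groups do not overlap, with an unadjusted p under 0.05 in either fit, or among the 10 smallest p of the list, and for genes of the other repair list whose groups do not overlap values or means were given. Xrcc4, Timeless, Mdc1, Trp53bp1, Fancb, Fancd2 and Wrn were singled out after their values were seen. Other genes of that list enter the counts, and 1 gene is not reported here. Lists were described by counts and medians, with no test over a list. The fit was run on simulated data whose changed genes differed more than any repair gene did. These data held no shared effect of replicate number or length. The run therefore does not cover differences as small as those of the repair genes. Summaries were made in Python 3.11.15 (pandas 2.3.3, numpy 2.4.6) and plots in matplotlib 3.10.9.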

Additional observations from a re-analysis of the deposited data

How the results depend on the processing

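The number of repair genes with an adjusted p under 0.05 was 0 in all 15 alternatives, as was that of the other repair genes. The 10 repair genes with the smallest p kept their sign in each alternative that tested them. They were picked from the same libraries, so this is not separate support. Of all 36, 27 were higher in the main fit, 18 without MaeaCsf1r-Cre replicate 1 and 33 without MaeaCsf1r-Cre replicate 2. Of all genes 39.1%, 37.7% and 47% were higher in these fits. The log2 fold change of Maea ran from -0.48 to -0.29. The count over all genes was 0 with a filter at a CPM of 10 and 2 with the length correction and replicate block, and 0 to 1 with single libraries left out (0 without MaeaCsf1r-Cre replicate 1 or 2 or control replicate 2 or 3). Repair genes with an unadjusted p under 0.05 numbered 4 with the length correction and replicate block, where 11.5% of all genes had one, and 0 to 2 with libraries left out, 2 without MaeaCsf1r-Cre replicate 2 and 0 without each of the others. Their median log2 fold change was 0.21 with the length correction, alone and with the block, 0.17 after quantile normalization, 0.15 with median ratios, and 0.01 to 0.19 with libraries left out, lowest without MaeaCsf1r-Cre replicate 1 and highest without MaeaCsf1r-Cre replicate 2. Of the other repair genes, the count with an unadjusted p under 0.05 became 6 under the replicate block, 6 with the block and the length correction, 1 with a filter at a CPM of 10, with the length correction or without the mean-variance trend, and 0 to 3 with libraries left out (0 without MaeaCsf1r-Cre replicate 1 or 3 or control replicate 2). The causes were not tested, apart from fewer genes or libraries. The replicate block changed no other call. Only 3 pools a group were available.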
